A study of Mus musculus with 15 samples.

Results

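The potassium channel genes were examined in cultured glioma stem cells, in the endothelial-type cells derived from them and in normal brain endothelium of the mouse. All protein-coding genes whose symbol is Kcn followed by family letters and a number were taken, which gave 92 of the 49585 genes in the count table (21973 of them protein-coding). They comprised 40 voltage-gated channel subunits (Kcna to Kcnd, Kcnf to Kcnh, Kcnq, Kcns and Kcnv), 15 inward rectifiers (Kcnj), 14 two-pore channels (Kcnk), 8 calcium-activated channels (Kcnma, Kcnn and, because of their related structure, Kcnt and Kcnu) and 15 auxiliary subunits (Kcnab, Kcne, Kcnip and Kcnmb). The symbols and not the measured values chose them. A total of 3 members had no count in any library.

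Poly(A) RNA was sequenced in 5 groups of 3 libraries, and every library is labelled with strain C57BL/6. The group 005 is a mouse glioma stem cell line grown without serum, and because it is a single line it stands for 1 tumor model only. The group TDEC day 2 holds 005 cells after 2 days of differentiation into tumor-derived endothelial cells (TDECs) in EGM-2, an endothelial growth medium, at 1% O2. The group TDEC holds untreated TDECs, whose labels give no day and which are here treated as TDECs after 5 days, the time the study names. The group TDEC sertraline holds TDECs of 5 days that then received 5 µM sertraline, a serotonin reuptake inhibitor used as an antidepressant, for 24 h, so that they may be 1 day older than the untreated cells. No vehicle is named for the untreated cells. MBMECs are purchased mouse brain microvascular endothelial cells that were grown in another medium with serum, and no oxygen level is given for them, so that cell type, medium and oxygen cannot be told apart in that comparison. For 005, TDEC day 2 and MBMEC no source used here says that the 3 libraries came from separate cultures, so the p-values measure the spread between these libraries, which may be technical.

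Potassium channels let potassium ions leave or enter the cell and so set the membrane potential, cell volume and, in endothelium, the driving force for calcium entry. Voltage-gated channels open on depolarization, inward rectifiers hold the resting potential and take up extracellular potassium in glia, two-pore channels carry the background leak, and calcium-activated channels couple a rise in intracellular calcium to hyperpolarization. Auxiliary subunits bind the pore-forming subunits and change their gating and their transport to the membrane.

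Library totals ranged from 11283680 to 17093061 counts. Levels are given below as CPM, counts relative to the library total after TMM scaling over all 15 libraries, and levels of different genes are compared only after division by exon length, as CPM per kb. Replicate 3 of 005 and replicate 3 of TDEC day 2 stood apart from the other libraries of their groups, since their chi-square statistic per gene against them was 10.3 to 10.9 while the other pairs gave 2.09 and 2.46. Replicate 2 of TDEC sertraline (6.51 and 6.78 against 2.21) and replicate 2 of MBMEC (4.14 and 4.67 against 2.69) did so to a lesser extent. Titles of the 005, TDEC day 2 and TDEC libraries share a prefix that the sertraline and MBMEC titles lack, its meaning is not given, and it cannot be told apart from the group in the comparisons of TDEC with those groups. Of 15 endothelial markers, all 15 were lower in TDEC than in MBMEC, with a summed level of 48.4 to 54.3 CPM against 9670 to 9880 CPM, and 3 of them, Cldn5, Tie1 and Sox17, were at 0 counts in every TDEC library. Against 005 the summed level of the list went the other way, at 8.20 to 12.5 CPM in 005 and 21.9 to 32.9 CPM in TDEC day 2. Of the 6 markers tested in TDEC against 005, 2 were higher and 0 lower, with a median log2 fold change of 0.25. The higher ones were the VEGF receptor genes Flt1 (1.69 ± 0.327 to 40.8 ± 2.78 CPM) and Kdr (1.20 ± 0.502 to 3.96 ± 0.348 CPM), while Pecam1 (log2 -0.90, adjusted p = 0.039) and Vwf (log2 -0.97, adjusted p = 0.0073) were under a fold of 2. In sum the markers thus stood above 005, in TDEC mostly through Flt1 alone, but far below MBMEC. The cells are called TDEC only as a name.

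The potassium channel genes took up a small and changing share of the transcriptome. The summed level of the 92 genes was 133 ± 10.1 CPM per kb in 005 (mean ± SD, n = 3 in every group), 83.0 ± 6.99 in TDEC day 2, 96.6 ± 1.63 in TDEC, 92.7 ± 1.05 in TDEC sertraline and 38.0 ± 1.5 in MBMEC. A mean of at least 1 CPM was reached by 42 members in 005, 43 in TDEC day 2, 44 in TDEC, 41 in TDEC sertraline and 11 in MBMEC, and 47 members were without any count in MBMEC against 15 to 20 in the other groups.

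The makeup by class also differed. Inward rectifiers held 4.77% ± 0.312 of the summed level in 005, 11.5% ± 1.56 in TDEC day 2 and 17.5% ± 0.171 in TDEC, and calcium-activated channels held 3.61% ± 0.179, 7.44% ± 0.454 and 10.6% ± 0.574. Over the same groups auxiliary subunits held 35.1% ± 3.09, 23.3% ± 2.64 and 18.0% ± 0.344. The libraries of 005, TDEC day 2 and TDEC did not overlap in summed level for the inward rectifiers and the calcium-activated channels. Voltage-gated subunits held 40.6% to 44.6% in the 4 groups of 005 origin and 77.9% ± 0.870 in MBMEC. In bulk RNA, fewer cells of a type and less RNA per cell cannot be told apart, here and in all that follows.

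**Figure D1:**
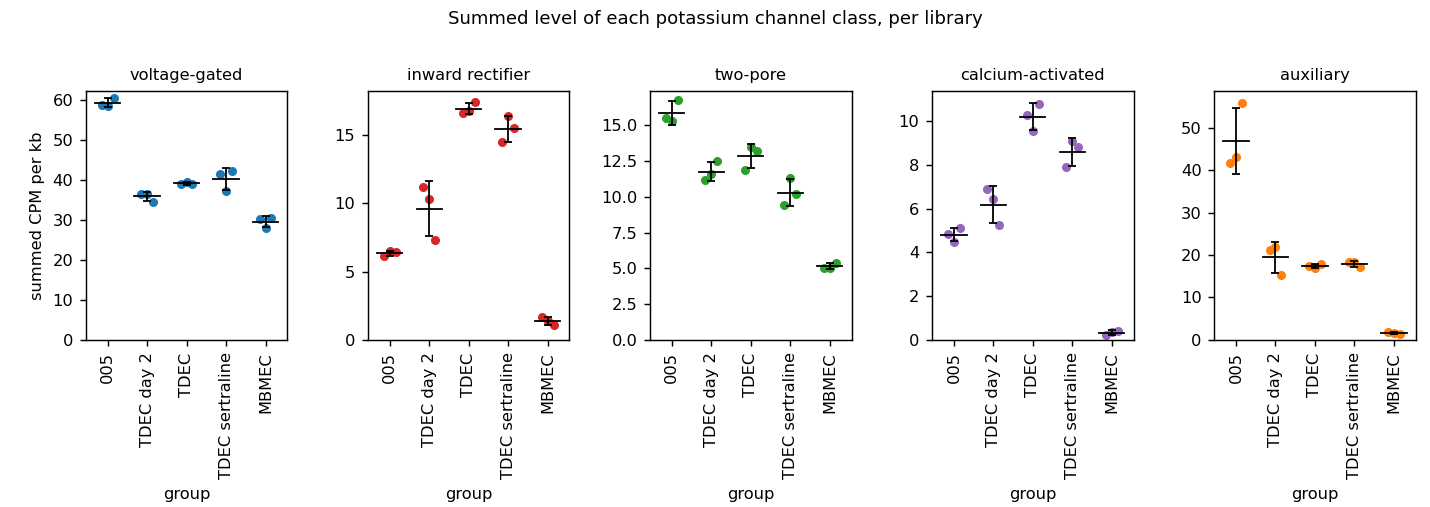
Summed level of each class of potassium channel genes (CPM per kb, linear axis from 0) in each library of the 5 groups. Points are libraries, long bars means and whiskers the SD of 3 libraries. Inward rectifiers and calcium-activated channels were highest in TDEC, and auxiliary subunits in 005.

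A few genes carried most of the signal. Kcnip3 (35.0 ± 7.29 CPM per kb), which encodes a calcium-binding partner of Kv4 channels, and Kcnd3 (33.7 ± 0.861 CPM per kb), which encodes the Kv4 pore subunit Kv4.3, led in 005 and did not differ beyond their spread. They held 26.2% and 25.3% of the summed level. Kcnd3 (13.4 ± 0.244 CPM per kb) led in TDEC, and Kcnj10 (9.01 ± 0.269), Kcnip3 (8.10 ± 0.526) and Kcnk1 (7.82 ± 0.708) were among the 5 highest, of which only the last pair lay within their spread of each other. These 4 genes were among the 5 highest in TDEC sertraline too. MBMEC had another order, with Kcnq1 (18.9 ± 1.35 CPM per kb), Kcnh2 (9.58 ± 0.114) and Kcnk2 (3.58 ± 0.354) ahead, and Kcnk6 next at 0.792 ± 0.101.

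**Figure D2:**
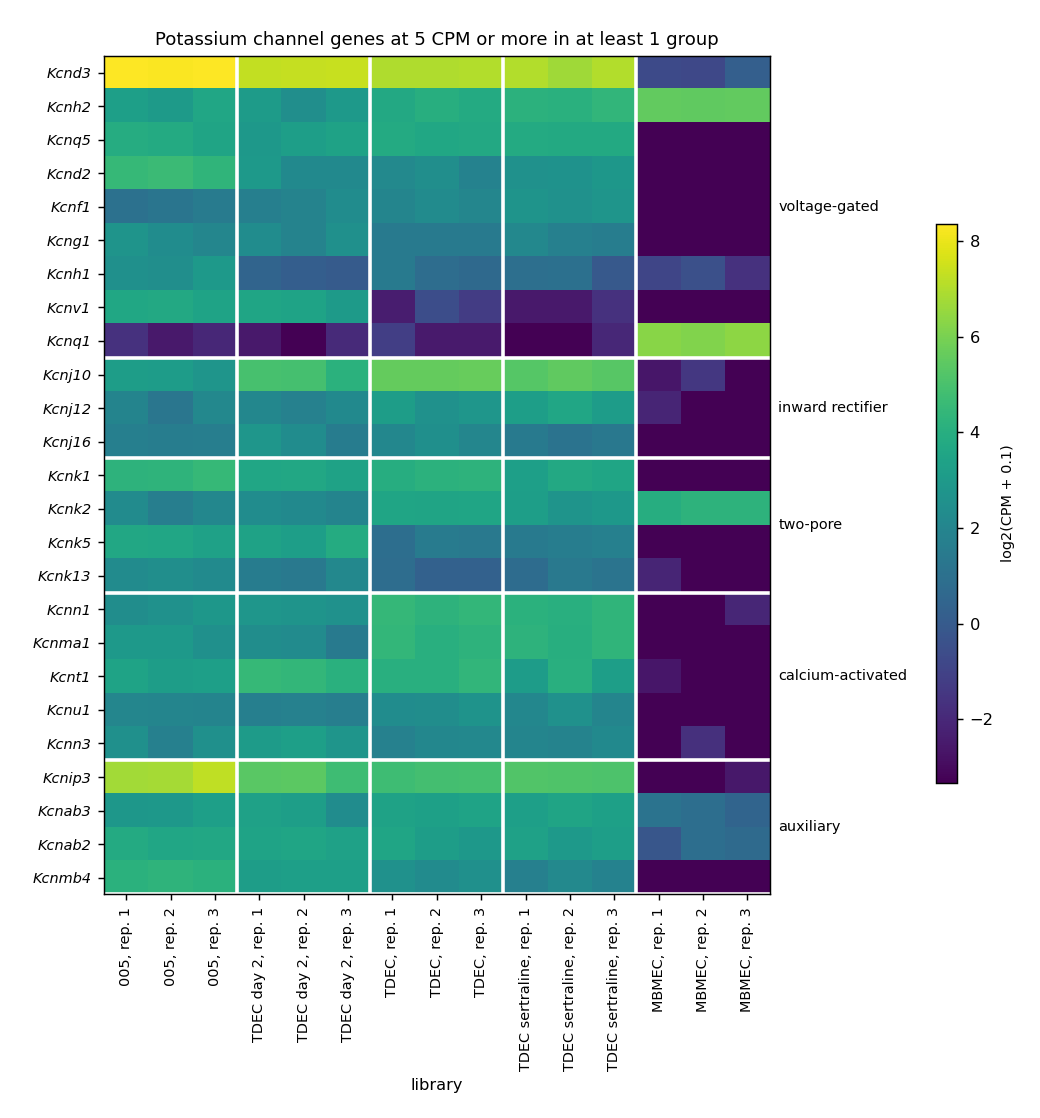
Level of 25 potassium channel genes with a mean of at least 5 CPM in 1 group or more, as log2(CPM + 0.1) in each of the 15 libraries, grouped by class and, within a class, ordered by their level in TDEC. Most rows are dark in the MBMEC columns, where Kcnq1, Kcnh2 and Kcnk2 are bright.

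The comparison of TDEC with 005 asked which genes differed between the stem cells and the cells differentiated from them. Because differentiation was done in EGM-2 at 1% O2, its effect, that of the medium and that of oxygen cannot be told apart. This holds for TDEC day 2 against 005 too. Of the 92 genes, 46 passed the filter on low counts and were tested, and a gene was called at an edgeR adjusted p under 0.05 over all genes with a fold change above 2. Among the 46 members, 7 were higher and 9 lower in TDEC, that is 15.2% and 19.6%, while 13.1% of all genes tested were called higher and 10.4% lower. The median log2 fold change was 0.41 over the tested members and -0.01 over all genes. Higher genes comprised 2 inward rectifiers, 2 calcium-activated channels, 1 two-pore channel, 1 voltage-gated subunit and 1 auxiliary subunit, and lower genes 5 voltage-gated, 2 two-pore and 2 auxiliary ones.

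Kcnd3, Kcnd2 and Kcnip3, genes of the Kv4 channel complex, fell. Kv4 channels carry the fast transient potassium current of neurons and heart, with KChIP proteins as their calcium-binding partners. Kcnd3 (ENSMUSG00000040896, mm10 chromosome 3, 105452330 to 105674002, plus strand) was at 326, 314 and 329.7 CPM in the 005 libraries, at 158, 164 and 165 CPM in TDEC day 2 and at 127, 127 and 131 CPM in TDEC. The 3 groups did not overlap. Its log2 fold change was -1.32 in TDEC against 005 (SE 0.06, edgeR adjusted p = 8.8e-10). The antisense gene Kcnd3os overlaps it on the opposite strand and was at 15 CPM in 005 and 5.76 CPM in TDEC, and because the strand setting of the counting is not given, reads of overlapping genes cannot be told apart. Kcnd2, which encodes Kv4.2, was at 22.4, 25.3 and 20.2 CPM in 005 and at 4.45, 5.34 and 3.58 CPM in TDEC, a log2 fold change of -2.33 (SE 0.16, adjusted p = 8.0e-08). Kcnip3 (ENSMUSG00000079056, chromosome 2, 127456498 to 127522094, minus strand), whose product KChIP3 is also known as a transcriptional repressor, was at 107, 111 and 154 CPM in 005 and at 26.6, 29.3 and 30.2 CPM in TDEC. It fell by 2.1 on the log2 scale (SE 0.13, adjusted p = 2.8e-08). Of the other members of the complex, Kcnip1 rose from 1.52 ± 0.324 to 4.11 ± 1.2 CPM (log2 1.45, adjusted p = 7.3e-04), and Kcnd1 was at 2.36 ± 0.467 and 3.94 ± 0.467 CPM, past the adjusted p (0.012) but under a fold change of 2. The KChIP genes Kcnip2 (log2 0.42, adjusted p = 0.29) and Kcnip4 (log2 -0.40, adjusted p = 0.26) were tested and not called.

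Because Kcnd3, Kcnd2 and Kcnip3 moved together and Kcnj10 the other way, the 250 bases before their RefSeq start (GRCm38.p6, which shares its coordinates with mm10) are shown 5′ to 3′, at the start nearest to that of the counted gene (440 bases from it for Kcnd3, 157 for Kcnd2 and 0 for the other genes). Capitals mark matches on either strand to GGGCGG (GC box) or TGANTCA (AP-1 site). The third motif searched, ACGTG (core of the hypoxia response element), had no match in these 4 windows. None of the marked matches overlap.
Kcnd3, chr3:105451640-105451889 (+): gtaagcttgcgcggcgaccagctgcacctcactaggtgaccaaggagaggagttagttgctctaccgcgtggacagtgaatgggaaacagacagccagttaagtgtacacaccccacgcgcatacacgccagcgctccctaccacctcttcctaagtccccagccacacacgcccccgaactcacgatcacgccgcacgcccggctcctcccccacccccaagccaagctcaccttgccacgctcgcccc
Kcnd2, chr6:21215096-21215345 (+): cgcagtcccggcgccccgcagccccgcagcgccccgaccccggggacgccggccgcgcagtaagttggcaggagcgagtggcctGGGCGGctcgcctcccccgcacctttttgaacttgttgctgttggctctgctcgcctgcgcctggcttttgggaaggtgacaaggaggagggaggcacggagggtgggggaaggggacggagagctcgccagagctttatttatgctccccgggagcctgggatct
Kcnip3, chr2:127522095-127522344 (-): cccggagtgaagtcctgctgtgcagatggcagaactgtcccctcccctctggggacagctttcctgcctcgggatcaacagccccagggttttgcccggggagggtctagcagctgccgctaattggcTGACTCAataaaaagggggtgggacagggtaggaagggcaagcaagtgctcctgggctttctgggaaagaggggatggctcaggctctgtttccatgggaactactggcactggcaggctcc
Kcnj10, chr1:172340960-172341209 (+): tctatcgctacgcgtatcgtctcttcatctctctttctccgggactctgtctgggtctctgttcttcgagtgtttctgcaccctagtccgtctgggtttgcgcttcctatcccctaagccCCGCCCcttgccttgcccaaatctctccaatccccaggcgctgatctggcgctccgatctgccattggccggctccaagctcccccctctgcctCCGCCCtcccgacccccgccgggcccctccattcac
Over all 32851 windows of this length in the RefSeq table, GGGCGG was found in 32.7%, TGANTCA in 6.75% and ACGTG in 16.6%, and over the 67 members with a window, in 46.3%, 4.48% and 17.9%. Kcnd2 held 1 GC box, Kcnj10 held 2, Kcnip3 held 1 AP-1 match and Kcnd3 none of the 3 motifs. GC content of the 4 windows was 60.0% to 68.8%, with a median of 58.8% over the members and 52.4% over all windows. These are matches of letters only.

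Kcnv1 showed the largest log2 difference among the called members in TDEC against 005. It encodes a subunit that forms no channel alone and modifies Kv2 channels. Kcnv1 stood at 12.3, 13.1 and 11 CPM in 005, at 11.5, 11 and 8.26 CPM in TDEC day 2 and at 0.0890, 0.575 and 0.326 CPM in TDEC. The TDEC libraries lay far below all others of the time course. Its log2 fold change against 005 was -5.13 (SE 0.30, adjusted p = 1.9e-08), and -5.77 without TDEC replicate 2. Kcna6 fell from 3.30 ± 1.61 to 0.448 ± 0.121 CPM (log2 -2.84, adjusted p = 1.3e-04), with its antisense gene Gm26673 at 1.40 and 0.0545 CPM, and Kcnh1, which encodes the Eag1 channel found in many tumors, fell from 6.29 ± 1.37 to 1.98 ± 0.685 CPM (log2 -1.66, adjusted p = 1.4e-04). The groups of these genes did not overlap. Kcnv1 and Kcna6 passed the filter on low counts through their 005 counts only, so they could only be called lower.

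Neuronal markers moved over the same samples. Of 11 neuronal markers 9 were tested in TDEC against 005, 4 of them lower (among them Dcx, log2 -5.76, and Syt1, log2 -2.96) and 2 higher (Gad1, log2 2.28, and Snap25, log2 1.62). Their summed level was 651 to 784 CPM in 005 and 395 to 397 CPM in TDEC, and 1 marker was without counts in TDEC. Their part in the lower voltage-gated levels was not tested.

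Among the inward rectifiers, 2 of 7 tested members rose and none fell, where 13.1% of all genes were called higher and 10.4% lower. Kcnj10 (ENSMUSG00000044708, chromosome 1, 172341210 to 172374085, plus strand) encodes Kir4.1, the main potassium-buffering channel of astrocytes. Kcnj10 was at 8.99, 8.84 and 6.71 CPM in 005, at 30.9, 29.9 and 17.8 CPM in TDEC day 2 and at 48.0, 47.8 and 50.4 CPM in TDEC. The 3 groups did not overlap and stood in the order of time. It was 6.00-fold higher in TDEC than in 005 (log2 2.58, SE 0.11, adjusted p = 1.2e-09). Kcnj12, a strong inward rectifier (Kir2.2), was at 3.74, 2.34 and 4.25 CPM in 005 and at 8.99, 5.91 and 6.92 CPM in TDEC (log2 1.08, SE 0.24, adjusted p = 0.0016), and fell under a fold change of 2 without 005 replicate 2 (log2 0.86) or TDEC replicate 1 (log2 0.90) or with library totals (log2 0.95). Kcnj16, whose product Kir5.1 pairs with Kir4.1, was at 3.09 ± 0.0857 and 4.61 ± 0.842 CPM (fold 1.51, adjusted p = 0.024). Of 10 astrocyte markers, all tested, 4 were higher and 1 lower in TDEC than in 005, their summed level was 958 to 969 CPM in 005, 1999 to 2033 in TDEC day 2 and 1601 to 1737 in TDEC, and none was without counts. Their part in the higher Kcnj10 was not tested.

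Among the calcium-activated channels, 2 of 7 tested members rose and none fell, where 13.1% of all genes were called higher and 10.4% lower. Kcnn1, which encodes the small-conductance channel SK1, was at 5.25, 5.99 and 7.14 CPM in 005, at 6.87, 6.48 and 5.94 CPM in TDEC day 2 and at 22.0, 19.0 and 21.2 CPM in TDEC. The first 2 groups overlapped and TDEC lay above both. Its log2 fold change in TDEC against 005 was 1.77 (SE 0.14, adjusted p = 3.0e-07). Kcnma1, the pore subunit of the large-conductance BK channel, was at 7.84, 7.60 and 5.70 CPM in 005, at 5.13, 4.90 and 2.64 CPM in TDEC day 2 and at 21.3, 16.3 and 18.9 CPM in TDEC (log2 1.42 against 005, SE 0.16, adjusted p = 5.6e-06). The lincRNA A830039N20Rik lies within Kcnma1 on the same strand and was at 1.37, 1.02 and 5.5 CPM in these groups. Kcnmb4, the BK auxiliary subunit of brain, moved the other way, with 17.7, 19.5 and 17.7 CPM in 005 and 5.96, 4.92 and 5.70 CPM in TDEC (log2 -1.71, SE 0.13, adjusted p = 2.4e-07). Its 2 antisense genes, Kcnmb4os1 and Kcnmb4os2, were at 8.15 and 10.5 CPM in 005 and 2.27 and 3.59 CPM in TDEC.

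Of 7 tested two-pore channels 1 rose and 2 fell, where 13.1% of all genes were called higher and 10.4% lower. Kcnk2, the mechanosensitive channel TREK-1, was at 4.82, 3.14 and 4.18 CPM in 005 and at 11.5, 11.4 and 11.5 CPM in TDEC (log2 1.51, SE 0.17, adjusted p = 7.1e-06). A processed pseudogene, Pdcd5-ps, lies within Kcnk2 on the same strand and was at 17.7 and 17.5 CPM. Kcnk5, the acid-sensitive channel TASK-2, was at 12.7, 12 and 10.1 CPM in 005 and at 1.78, 2.79 and 2.52 CPM in TDEC (log2 -2.27, SE 0.19, adjusted p = 5.9e-07), and Kcnk13 (THIK-1) fell from 5.02 ± 0.341 to 1.33 ± 0.316 CPM (log2 -1.91, adjusted p = 1.8e-05). Kcnk1 (TWIK-1), the highest two-pore gene per kb in the groups of 005 origin, was at 18.7, 19.1 and 22.5 CPM in 005 and 15.7, 18.2 and 18.6 CPM in TDEC and did not pass the test (adjusted p = 0.17).

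**Figure D3:**
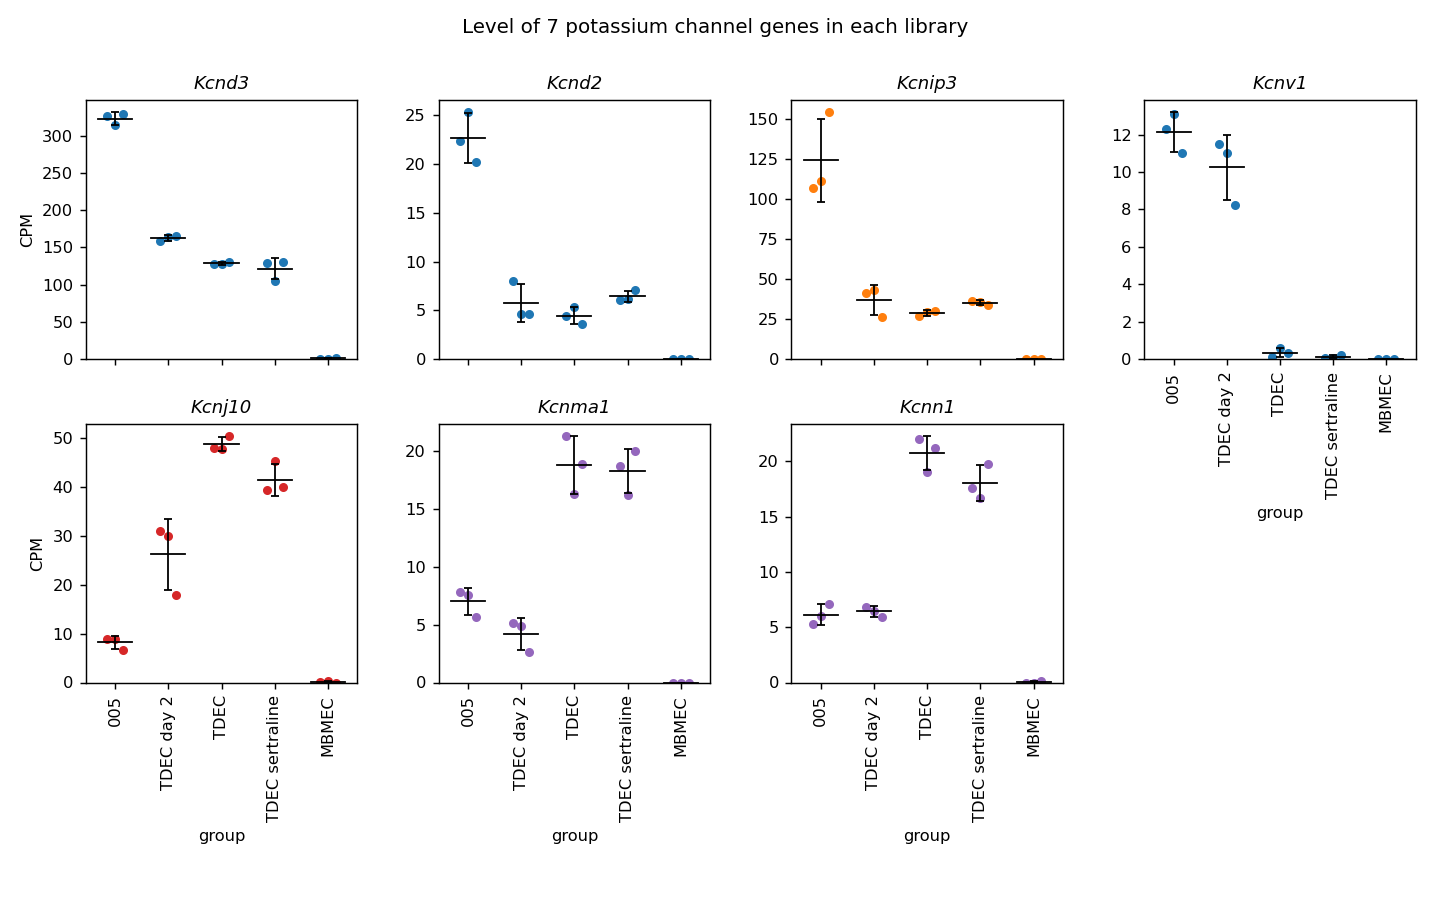
Level in CPM (linear axis from 0) of 7 potassium channel genes in each library of the 5 groups. Points are libraries, long bars means and whiskers the SD of 3 libraries. Kcnd3, Kcnd2 and Kcnip3 were lower from day 2 on. For Kcnv1, Kcnma1 and Kcnn1, TDEC was set apart from 005 and TDEC day 2 but overlapped TDEC sertraline. Kcnj10 stood in the order of time over 005, TDEC day 2 and TDEC.

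The day 2 libraries divide these differences in time. In TDEC day 2 against 005, 3 of 45 tested members were higher and 7 lower (6.67% and 15.6%), with 5.35% of all genes called higher and 4.48% lower. The median log2 fold change was -0.21 over the members and -0.02 over all genes. Kcnj10 (log2 1.67, SE 0.21, adjusted p = 1.2e-04) and Kcnt1 (log2 1.01, SE 0.15, adjusted p = 3.7e-04), which encodes a sodium-activated channel, were higher, Kcnt1 with 11, 9.13 and 9.59 CPM in 005 and 22.5, 21.2 and 16.8 CPM in TDEC day 2. Kcnip1 was also called higher (1.52 ± 0.324 and 3.08 ± 1.27 CPM, adjusted p = 0.043), but its groups overlapped. Of the Kv4 complex, Kcnip3 (41.0, 43.1 and 26.3 CPM in TDEC day 2) had a log2 fold change of -1.77 (SE 0.18, adjusted p = 2.5e-05), Kcnd2 (8.0, 4.61 and 4.62 CPM) one of -1.99 (SE 0.21, adjusted p = 3.0e-05) and Kcnd3 one of -1.01 (SE 0.07, adjusted p = 1.4e-06). Kcnh1 was at 5.68, 5.33 and 7.86 CPM in 005 and 1.28, 1.01 and 0.908 CPM in TDEC day 2 (log2 -2.56, SE 0.27, adjusted p = 3.6e-05). Kcnj4 (log2 -1.22, adjusted p = 0.0070) and Kcna6 (log2 -1.03, adjusted p = 0.044) were lower too. Kcnv1 at day 2 was not called (log2 -0.26, adjusted p = 0.23).

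Calls near the thresholds depended on single libraries or on the fit in this comparison. Kcnd3 lay at the fold threshold. With all libraries kept, its log2 value was -0.99, under a fold of 2, with DESeq2, with DESeq2 size factors, with a filter of at least 1 count and with all 15 libraries in 1 fit. It had log2 values of -0.99 without 005 replicate 1, -0.98 without 005 replicate 3 and -0.99 without either TDEC day 2 replicate 1 or 2. Kcnt1 was at or under a fold of 2 without 005 replicate 2 (log2 0.96), TDEC day 2 replicate 1 (0.92) or TDEC day 2 replicate 2 (1.00), and with library totals (0.94). Kcnip1 lost its call without any 1 of the libraries except TDEC day 2 replicate 3 (log2 0.73 to 1.2, adjusted p 0.052 to 0.17), and also with library totals (adjusted p = 0.057) and DESeq2 (adjusted p = 0.061). Kcna6 lost its call in every leave-one-out fit except the one without 005 replicate 2, with log2 -0.55 and adjusted p = 0.23 without 005 replicate 3, and with DESeq2 (adjusted p = 0.063). Kcnj10, Kcnip3, Kcnd2, Kcnh1 and Kcnj4 kept their calls under all alternatives run. Without both replicates 3, an alternative added after the data were seen, 6 members were higher, and with library totals in place of TMM 1 was higher and 8 lower. Of all genes, 821 were called higher and 687 lower, against 940 higher without both replicates 3. With library totals 742 were higher and 801 lower.

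From day 2 to TDEC, 6 of 44 tested members were higher and 6 lower (13.6% each), with 11.1% of all genes called higher and 9.35% lower. The median log2 fold change was 0.12 over the members and 0.00 over all genes. Kcnma1 was higher in TDEC (log2 2.15, SE 0.21, adjusted p = 5.8e-06). Kcnj4 (1.32 ± 0.381 to 4.40 ± 0.885 CPM, log2 1.74), Kcnn1 (log2 1.70, SE 0.13, adjusted p = 6.9e-07), Kcnk2 (log2 1.37, SE 0.16, adjusted p = 2.2e-05) and Kcnh2 (log2 1.02, SE 0.18, adjusted p = 3.9e-04) were higher too. Kcnv1 fell by 4.88 on the log2 scale (SE 0.35, adjusted p = 4.5e-07; -5.52 without TDEC replicate 2), and Kcnk5 (10.4, 9.37 and 14.4 CPM at day 2) fell by 2.24 (SE 0.23, adjusted p = 9.2e-06). Kcna6 (log2 -1.82), Kcnk13 (log2 -1.27), Kcnk10 (log2 -1.09) and Kcnn3 (log2 -1.06) were lower too. Here Kcnv1 and Kcna6 passed the filter through their day 2 counts only, so they could only be called lower. Kcnn3, which encodes the small-conductance channel SK3, was at 8.38, 9.65 and 6.69 CPM at day 2 and 3.38, 4.10 and 4.23 CPM in TDEC, opposite in direction to Kcnn1.

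In that comparison the groups of Kcnk10 overlapped, and it lost its call without any 1 of TDEC day 2 replicates 2 and 3 and the 3 TDEC replicates (adjusted p 0.064 to 0.12). Kcnn3 was under a fold of 2 without TDEC day 2 replicate 2 (log2 -0.94) or TDEC replicate 1 (log2 -0.98), and Kcnh2 without TDEC day 2 replicate 2 (log2 0.84) or TDEC replicate 2 (log2 0.94) or with library totals (log2 0.97). The comparisons of TDEC and TDEC day 2 with 005, and of TDEC with TDEC day 2, share libraries. Set side by side, Kcnd3 had log2 values of -1.01 to day 2 and -0.33 from day 2 to TDEC, Kcnip3 -1.77 and -0.35, Kcnd2 -1.99 and -0.36, Kcnj10 1.67 and 0.90, Kcnv1 -0.26 and -4.88, and Kcnma1 -0.75 and 2.15. The second step passed the adjusted p but not the fold threshold for Kcnd3 and Kcnj10, and neither for Kcnip3 and Kcnd2.

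TDEC were then compared with MBMEC, the normal endothelium. Of 47 tested members 38 were higher and 5 lower in TDEC (80.9% and 10.6%), with 28.1% of all genes called higher and 20.8% lower. The median log2 fold change was 5.13 over the members, with genes at 0 counts set at their bound, and 0.09 over all genes by fitted values. Higher members comprised 14 of 18 tested voltage-gated, 6 of 7 inward rectifier, 4 of 7 two-pore, 7 of 7 calcium-activated and 7 of 8 auxiliary genes. A total of 18 of the 38 had no count in any MBMEC library, for which folds are bounds against 3 counts summed over a group's libraries and cover counting error only. Among the 38, only Kcnab3 and Kcnn4 reached the filter's level in all 3 MBMEC libraries. The others, these 18 and 8 more with 1 to 3 counts there among them, passed through their TDEC counts, so they could only be called higher. In the other direction, of the 5 lower members only Kcnh2 reached the filter's level in all 3 TDEC libraries. Kcnk6, Kcnq1, Kcnh3 and Kcnj2 passed through their MBMEC counts, so they could only be called lower.

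The members higher in MBMEC were few and of several classes. Kcnq1 (ENSMUSG00000009545, chromosome 7, 143106362 to 143427042, plus strand) encodes the slow delayed rectifier subunit of heart and epithelia and was at 78.8, 71.2 and 81.9 CPM in MBMEC and at 0.356, 0.0821 and 0.0814 CPM in TDEC. Its log2 fold change was -8.70 (SE 0.19, adjusted p = 5.8e-26), and 4 of its 6 counts in TDEC were in replicate 1. The opposite-strand gene Kcnq1ot1 was at 12.1 CPM in MBMEC and 9.83 CPM in TDEC. Kcnh2, the ERG channel of cardiac repolarization, was at 46.9, 45.8 and 46.6 CPM in MBMEC and at 13.3, 16.0 and 13.9 CPM in TDEC (log2 -1.62, SE 0.09, adjusted p = 2.2e-16). Kcnk6 (TWIK-2) had 0 counts in all TDEC libraries and 145 in MBMEC (3.16, 2.94 and 3.76 CPM) and was at least 39.0-fold lower in TDEC. It had no count in 005, TDEC day 2 or TDEC sertraline either. Kcnj2 (Kir2.1), the inward rectifier known from capillary endothelium, was at 4.39, 3.70 and 3.54 CPM in MBMEC and 0.712, 1.40 and 1.38 CPM in TDEC (log2 -1.65, SE 0.27, adjusted p = 3.3e-06). Kcnh3 (log2 -1.25, adjusted p = 0.0073) was lower in TDEC too, though not called in DESeq2 (adjusted p = 0.070) or with all 15 libraries in 1 fit (adjusted p = 0.064). Kcnk2 was at 15.7, 18.5 and 18.9 CPM in MBMEC and 11.5 ± 0.0408 CPM in TDEC, past the adjusted p (5.5e-05) with a fold of 1.47.

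The members higher in TDEC included those that led in 005 and TDEC. Kcnd3 was at 0.516, 0.479 and 1.06 CPM in MBMEC (log2 7.61 for TDEC, SE 0.12, adjusted p = 8.9e-29) and Kcnj10 at 0.0645, 0.274 and 0 CPM (log2 8.70, SE 0.21). Of the 5 MBMEC counts of Kcnj10, 4 were in replicate 2. Kcnip3 had 1 count in MBMEC and 1027 in TDEC, a ratio of 1272 with a 95% counting interval of 228 to 50282, and Kcnn1 had 2 and 739 counts, a ratio of 458 with an interval of 126 to 3785. Kcnt1 had 1 count in MBMEC (ratio 784, interval 140.2 to 31010). Of the genes at 0 counts in MBMEC, Kcnma1 was at least 276-fold higher in TDEC, Kcnk1 at least 258-fold, Kcnq5 at least 195-fold, Kcnmb4 at least 81.3-fold and Kcnu1 at least 80.9-fold. A further 11, at least 16.1-fold to 68.1-fold higher, were Kcnj16, Kcnd2, Kcnj4, Kcnc1, Kcnf1, Kcna2, Kcng1, Kcnk5, Kcnq3, Kcnn2 and Kcnh5.

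The remaining genes higher in TDEC had some counts in MBMEC. Kcnj12, Kcnip1, Kcnn3, Kcnh7 and Kcnk13 had 2 or 3 counts there, with ratios of 159.7 (95% counting interval 43.8 to 1326), 91.6 (24.9 to 764), 57.8 (19.4 to 284), 39.0 (10.4 to 329) and 29.1 (7.62 to 247), respectively. The fitted log2 values were 4.31 for Kcnk4, 3.17 for Kcnj9, 3.12 for Kcnab1, 2.92 for Kcnip2, 2.85 for Kcnab2, 2.67 for Kcnab3, 2.24 for Kcnh1, 1.23 for Kcnj14 and 1.21 for Kcnn4. Kcnab2 and Kcnab3 encode beta subunits of Kv1 channels. All 5 MBMEC counts of Kcnab1 were in replicate 1, the log2 value of Kcnip2 was 3.51 without that library, and Kcnn4, the intermediate-conductance channel of endothelium, was under a fold of 2 without it (log2 0.97). Tested members not called were Kcnip4, Kcnk10 and Kcnd1, the last with 3.94 ± 0.467 CPM in TDEC and 3.23, 3.70 and 2.76 CPM in MBMEC.

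**Figure D4:**
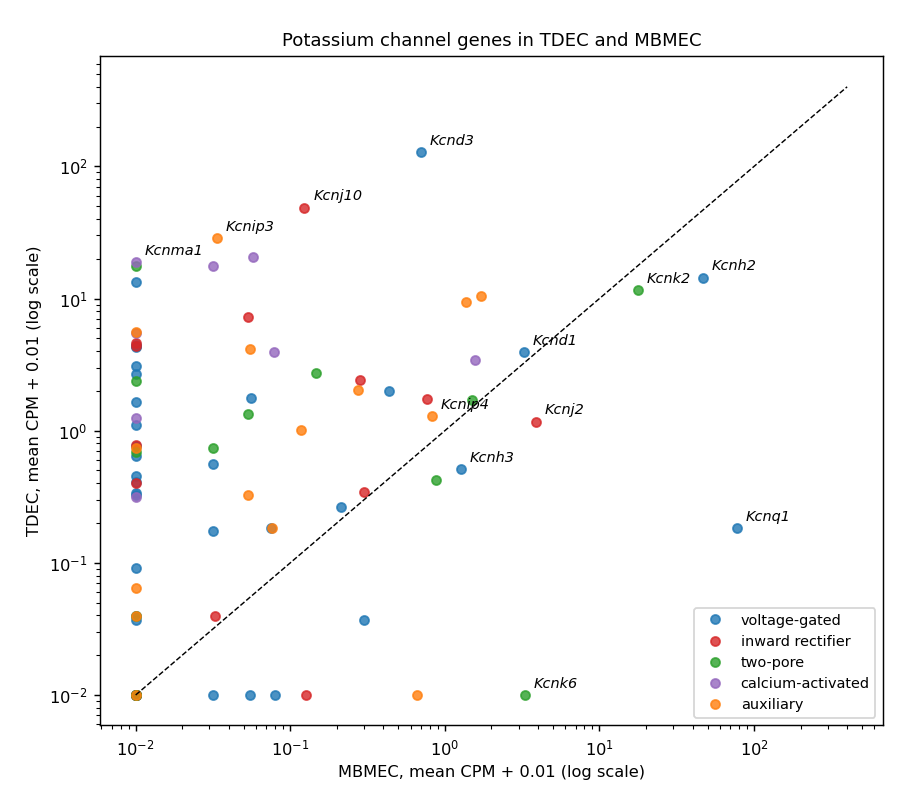
Mean level of 89 potassium channel genes in TDEC against MBMEC (CPM + 0.01, both axes on a log scale, 3 libraries each), colored by class, with the line of equality dashed. Points at the left edge had no count in MBMEC. Kcnq1, Kcnh2, Kcnk2, Kcnk6, Kcnj2 and Kcnh3 lie below the line among the labelled genes.

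With sertraline, 20 of 49 tested members passed the adjusted p (40.8%, against 35.3% of all genes), and 6 of them also passed the fold threshold. In TDEC sertraline against TDEC, 2 of 49 tested members were higher and 4 lower (4.08% and 8.16%), with 1.82% of all genes called higher and 3.26% lower, and the median log2 fold change was -0.05 over the members and -0.00 over all genes. All 6 called members were low, with a mean of at most 3.43 CPM in either group. Of the 6, only Kcnn4 reached the filter's level in all 3 libraries of both groups. Kcnt2 and Kcnk3 passed through their sertraline counts, so they could only be called higher. Kcna2, Kcnh7 and Kcnj14 passed through their TDEC counts, so they could only be called lower. Kcnt2, a sodium-activated channel, was at 0.178, 0.328 and 0.407 CPM in TDEC and at 1.66, 1.96 and 2.39 CPM with sertraline (log2 2.63, SE 0.40, adjusted p = 1.1e-04). Kcnk3, the acid-sensitive background channel TASK-1, was at 0.890, 0.821 and 0.488 CPM in TDEC and at 2.75, 3.84 and 2.61 CPM with sertraline (log2 2.02, SE 0.32, adjusted p = 1.5e-04). Kcna2 (Kv1.2) was at 2.76, 3.04 and 3.42 CPM in TDEC and at 0.579, 0.869 and 0.941 CPM with sertraline (log2 -1.97, SE 0.29, adjusted p = 8.2e-05). In none of the 3 genes did the groups overlap.

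Kcnh7 (log2 -1.45, SE 0.38, adjusted p = 0.0070), Kcnj14 (log2 -1.43, SE 0.40, adjusted p = 0.012) and Kcnn4 (log2 -1.25, SE 0.29, adjusted p = 0.0035) were also lower with sertraline. Kcnn4 was at 3.74, 3.45 and 3.09 CPM in TDEC and 0.868, 2.17 and 1.38 CPM with sertraline, and was under a fold of 2 without sertraline replicate 1 (log2 -0.97). Kcnj14 lost its call without TDEC replicate 3 (adjusted p = 0.057) or sertraline replicate 1 (adjusted p = 0.060) and stood at log2 -2.13 without sertraline replicate 3. Kcnh7 lost its call without TDEC replicate 3 (adjusted p = 0.052). Leaving out sertraline replicate 2, the library of that group that stood apart, gave 7 lower members in place of 4. Of all genes, 602 of 15808 were then called lower in place of 506 of 15540.

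A further 14 members passed the adjusted p with a fold of at most 2. Among the higher-level genes these were Kcnj10 (48.7 ± 1.45 to 41.5 ± 3.21 CPM, log2 -0.27), Kcnk1 (17.5 ± 1.58 to 11.6 ± 1.82 CPM, log2 -0.63), Kcnk2 (log2 -0.60), Kcnip3 (28.7 ± 1.86 to 35.2 ± 1.33 CPM, log2 0.26) and Kcnh2 (log2 0.34). Kcnt1 was at 16.3, 16.3 and 20.4 CPM in TDEC and 8.61, 16.3 and 9.41 CPM with sertraline (log2 -0.66, adjusted p = 0.010), with replicate 2 at the level of the untreated cells. Kcnd3, Kcnma1 and Kcnn1 did not pass the adjusted p (0.09 to 0.67), with log2 values of -0.23 to -0.07. The share of counts from mitochondrial genes was 3.48% to 3.60% in TDEC and 2.47% to 2.62% with sertraline, and its part in these differences was not tested.

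**Figure D5:**
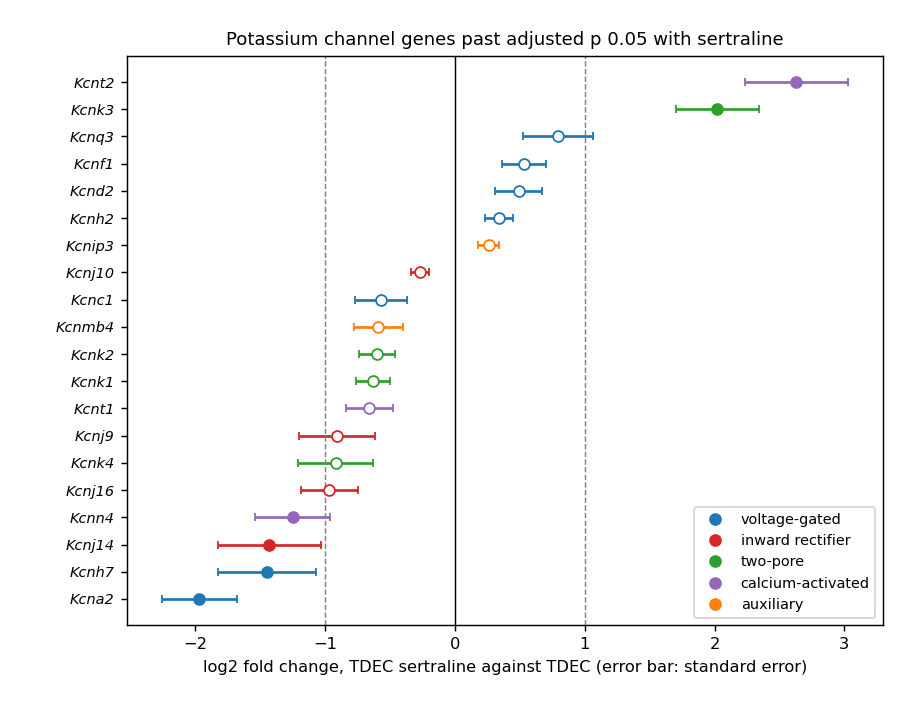
Log2 fold change in TDEC sertraline against TDEC, with its standard error, for the 20 potassium channel genes that passed an adjusted p of 0.05, colored by class. Filled points are the 6 genes past a fold change of 2 (dashed lines), Kcnt2 and Kcnk3 on the higher side and Kcna2, Kcnh7, Kcnj14 and Kcnn4 on the lower.

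Genes that work with the channels were counted from 3 further lists. Of all genes tested, 13.1% were called higher and 10.4% lower in TDEC against 005, and 5.35% and 4.48% at day 2. The shares were 11.1% and 9.35% in TDEC against TDEC day 2, 28.1% and 20.8% in TDEC against MBMEC, and 1.82% and 3.26% with sertraline. Of 24 genes of potassium pumps, pump subunits and cation-chloride cotransporters, 14 were tested in TDEC against 005, 5 of them higher and 2 lower. Among them, the potassium-chloride cotransporter gene Slc12a4 had a log2 fold change of 1.55 (103 ± 13.2 to 301 ± 14.1 CPM) and Atp1b1, a beta subunit of the sodium pump, one of 1.47 (32.1 ± 1.01 to 88.0 ± 6.60 CPM), while Slc12a7, another potassium-chloride cotransporter, had -1.21. At day 2 the list had 1 higher and 1 lower of 13, in TDEC against TDEC day 2 3 higher and none lower of 14, in TDEC against MBMEC 9 higher and 3 lower of 17, and with sertraline 1 higher and 1 lower of 15.

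Of 24 channel partners outside the symbol rule, 14 were tested in TDEC against 005, with 3 higher (Tmem38a, log2 1.38; Tmem38b, log2 1.15; Dlg1, log2 1.05) and 1 lower (Lgi1, a secreted Kv1-associated protein, log2 -4.62). Amigo1, a partner of Kv2 channels, was lower at day 2 (log2 -1.14, adjusted p = 1.0e-04). The partners had 1 higher and 2 lower of 15 at day 2, 2 higher and 1 lower of 14 in TDEC against TDEC day 2, 8 higher and 1 lower of 13 in TDEC against MBMEC, and no call among 13 with sertraline. Of 10 HCN and cyclic nucleotide-gated channels, relatives of the voltage-gated potassium channels that also pass sodium, 4 were tested in TDEC against 005, 3 of them higher and 1 lower. Hcn2 (log2 1.38) and Hcn4 (log2 1.00) were among the higher ones, and Hcn3 was lower (log2 -1.16). Hcn3 was higher with sertraline (4.53 ± 0.245 to 9.31 ± 1.68 CPM, log2 1.00, adjusted p = 2.9e-04). The other comparisons gave 0 higher and 1 lower of 4 at day 2, 2 higher and none lower of 4 in TDEC against TDEC day 2, and 4 higher and 1 lower of 5 in TDEC against MBMEC.

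A total of 37 members were tested in no comparison because their counts were too low, 42 were tested in all 5, and 43 were called in none.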

How the data were processed

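Poly(A) RNA of 15 mouse cell culture samples was sequenced in 5 groups of 3, and the authors deposited a count for every gene and library (whole reads, not normalized), made per the labels with bcl2fastq 2.19, Trimmomatic 0.38, HISAT2 2.1.0 and featureCounts 1.6.3 on mm10. The strand setting, the treatment of reads with several alignments and the annotation release are not given in the sources used here, so reads of paralogs and overlapping genes may be shared. Library totals were 11283680 to 17093061 counts, and intervals and floors cover counting error only.

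Each comparison was fitted to its 6 libraries in edgeR 4.0.16 (R 4.3.3) with TMM scaling, filterByExpr (minimum count 10), glmQLFit and glmQLFTest, with Benjamini-Hochberg adjustment over all genes. A gene was called at an adjusted p under 0.05 and a fold change above 2. The standard error (SE) is the absolute log2 fold change divided by the square root of F. The scripts were tested on simulated data. Exon lengths came from GENCODE M21, matched by gene ID for all 92 members, and windows before the gene start from RefSeq. With 0 counts in a group, folds are bounds against 3 counts over the group, and with 1 to 3 counts a ratio with an exact interval is given.

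Alternatives were DESeq2 1.42.0, DESeq2 size factors, library totals, a filter of at least 1 count, 1 fit of all 15 libraries, a replicate block and leaving out each library. Every called member whose higher group averaged 1 CPM or more was named, and values per library were given mainly for those of at least 5 CPM with groups that do not overlap, at most 6 per direction. Markers were counted from lists of endothelial, stem cell, astrocyte, oligodendrocyte lineage, neuronal, pericyte, microglial and fibroblast genes. The members and all lists were chosen with earlier results of these data known. Some genes are not reported here by name, in the text or the figures, but are included in the counts.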

Additional observations from a re-analysis of the deposited data

How the results depend on the processing

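Of 1052 alternative values of single called or named genes, 999 kept their direction and their side of the thresholds, 53 lost the call and 0 reversed, and 73 of 87 calls held under every alternative run. Of 122 alternative counts of called members, 111 stayed within 1.5 times. In TDEC day 2 against 005 the 3 higher members became 1 with library totals, 5 with all 15 libraries in 1 fit and 6 without replicate 3 of both groups (chosen after the data were seen), and the 7 lower members became 4 with DESeq2. Of all genes, the 821 higher became 742, 1008 and 940 under these alternatives, and the 687 lower became 631 with DESeq2. With a filter of at least 1 count, 12 members were higher in TDEC against 005 in place of 7, and 7 lower with sertraline in place of 4. All genes called there went from 2043 to 2563 and from 506 to 749. The filter of at least 1 count tests more genes and the joint and leave-out fits use other libraries, while library totals change only the scaling. DESeq2 changes the test, its scaling and the filter on low counts. The cause of these shifts was not tested further. Library totals moved the median of all genes by -0.13 in TDEC against 005 (log2) and gave 6 higher and 11 lower members there. All genes called went from 2043 to 1743 higher and from 1633 to 1999 lower.

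Leaving out 1 library at a time, which also lets more low genes into the test, gave 1 to 4 higher and 4 to 6 lower members in TDEC day 2 against 005, 6 to 10 and 10 to 11 in TDEC against 005, 5 to 8 and 4 to 6 in TDEC against TDEC day 2, 39 to 41 and 4 to 7 in TDEC against MBMEC, and 2 in each fit and 3 to 7 with sertraline. The count of higher members in TDEC day 2 against 005 was 1 without 005 replicate 2 or TDEC day 2 replicate 2, and that of lower members 4 without 005 replicate 3 or TDEC day 2 replicate 2. Of all genes, 842 and 857 were called higher and 498 and 673 lower in these fits, against 821 and 687 with all libraries.

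Replicate numbers did not pair the samples (correlations of same-numbered libraries -0.079 to 0.023). With the replicate number as a block, 2 members were higher and 6 lower in TDEC day 2 against 005, where Kcnip1 and Kcna6 lost their calls, and the counts in the other comparisons stayed at 7 and 9, 6 and 6, 38 and 5, and 2 and 4. Depth limits the low genes, since 37 members could be tested in no comparison and values of a few counts, such as those of Kcnv1 in TDEC, move with single reads.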

Other observations

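The remaining marker lists gave these values, where 13.1% of all genes were called higher and 10.4% lower in TDEC against 005. Of 10 stem cell markers, 1 was higher and 5 lower in TDEC than in 005, with a summed level of 2517 to 2755 CPM in 005 and 1508 to 1577 CPM in TDEC. Of 6 tested oligodendrocyte lineage markers, 0 were higher and 3 lower (235 to 256 and 149 to 154 CPM). Of 5 tested pericyte and smooth muscle markers 2 were higher and 1 lower (177 to 217 and 198 to 204 CPM), of 2 tested microglia and leukocyte markers 1 was higher (13.1 to 13.6 and 33.7 to 39.5 CPM), and of 3 tested fibroblast markers 2 were lower (44.3 to 52.4 and 20.3 to 23.3 CPM). In MBMEC, 4 of 12 pericyte and smooth muscle markers and 7 of 10 stem cell markers were without counts. With sertraline, 1 of 6 tested endothelial markers, Flt1, was lower (40.8 to 20.4 CPM).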
